A study of Mus musculus with 19 samples.

Results

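The glutathione transferases and antioxidant genes, only in part governed by the transcription factor NRF2, were followed with age in mouse hepatocytes. The set held 42 genes, chosen by gene symbol from the 24537 genes of the deposited table, and all 42 passed the filter on low counts. Hepatocytes had been isolated by perfusion from the livers of male C57BL/6J mice of wild-type genotype, and no treatment is given in the labels. The young group held 10 mice aged 5 months and the old group held 9 mice aged 24 months, with 1 poly(A) RNA library per mouse. Mice were culled on 2 days, with 5 young and 5 old mice on the first day and 5 young and 4 old mice on the second, 23 days later. Each mouse is named by the library number in its label.

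Glutathione transferases join the tripeptide glutathione to reactive electrophiles, which makes drugs, toxins and lipid oxidation products more soluble and easier to export. The liver makes large amounts of these enzymes and of glutathione itself. NRF2, encoded by Nfe2l2, is held at a low level by KEAP1, which presents it for ubiquitination and degradation. When electrophiles or oxidants modify KEAP1, NRF2 accumulates, pairs with a small MAF protein and binds antioxidant response elements beside genes for glutathione synthesis, thioredoxin and quinone reduction. Catalase, superoxide dismutases and peroxiredoxins remove superoxide and peroxides, only in part under NRF2.

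Levels are given as CPM, the counts of a gene per 1000000 counts of its library after scaling between libraries, and comparisons as the log2 fold change of old over young mice. Counts over genes totalled 17381439 to 19583059.5 in young libraries and 18156240 to 20287628.5 in old libraries. No member had fewer than 51 counts in any library. The 8 hepatocyte markers examined were present in all libraries and summed to 101200 to 154400 CPM in young mice and 123000 to 203300 CPM in old mice. Most of the sum was Alb, at 61170 to 116300 CPM in young and 93210 to 157500 CPM in old mice. In the age test described below, Alb and Apoa1 were higher and Tat, Cps1 and Hnf4a lower in old mice. Ttr, Serpina1c and Fgb did not pass. Markers of other liver cells were also present, and those of macrophages, endothelial cells and stellate cells were mostly higher in old mice. The 14 macrophage markers summed to 106.8 to 529.8 CPM in young mice and 70.04 to 3371 CPM in old mice, where mouse 1187 gave the 3371 and the other old mice reached 828.6. The 15 stellate cell markers summed to 53.9 to 144.1 CPM in young mice and 149.3 to 531.8 CPM in old mice, so the groups did not overlap. Young mice 1184, 1186 and 1188, all of the first cull day, stood apart in 14 acute-phase genes, which summed to 35670 to 64600 CPM in them and to 8167 to 9659 CPM in the other young mice.

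Of 10 members that remove peroxides or superoxide, 7 were lower in old hepatocytes, while Sod1, Gpx4 and Prdx2 did not pass. Of these 7, Sod2 and Prdx5 kept their call with a score of other cell types as a covariate. The markers in that score were mostly higher in old mice. On the log2 CPM scale it ran from 2.326 to 3.868 in young and from 2.485 to 5.583 in old mice. Because age and that score overlap in part, a call can be lost with or without a smaller difference. Gsr lost its call at -0.1983 against -0.1988 without the score, and Gstz1 at -0.0592 against -0.2479. The part of other cells in each difference was not tested. Outside the set and without that score, Sod3 (log2 fold change 1.89), Gpx3 (1.67) and Prdx4 (0.32) were higher, while Gpx6 and Gpx7 did not pass. Among the transferases, Gstp1, Mgst1, Gstz1 and Gsto1 were lower and Gstm5 and Mgst3 higher. In edgeR's quasi-likelihood test with cull day as a covariate, 13 of 42 members (31.0%) were lower in old mice at an adjusted p under 0.05, beside 14.5% of all 12269 genes tested. Another 3 members (7.14%) were higher, beside 16.3% of all genes, and 26 did not pass. Counted in either direction, 16 members passed, beside 30.9% of all genes. The median log2 fold change was -0.06 over the members and -0.003 over all genes. The transferases numbered 21. Among the other 21 members, 9 were lower and 1 higher. Most differences were small: 12 of the 13 lower members changed by less than 0.5 on the log2 scale. Among members past the threshold, Gstp1 alone was lower by at least 0.5, beside 2.45% of all genes. Mgst3 and Nqo1 passed and were higher by at least that much, beside 12.1%. Gstp2, Gsta1 and Hmox1 changed by more than 0.5 without passing. With that score, the mean log2 CPM of 43 macrophage, endothelial, stellate and lymphocyte markers, 5 members were lower and 2 higher, beside 6.37% and 6.74% of all genes, and 11 of the 16 calls were lost. Scaling by library totals alone gave 3 higher and 10 lower members (without Gstz1, Gsto1 and Prdx6), beside 17.1% and 9.53% of all genes, and 64.2% of all calls were then in the higher direction against 53.0%. Because the tissue was bulk hepatocytes, less RNA per cell and fewer expressing cells cannot be told apart.

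**Figure D1:**
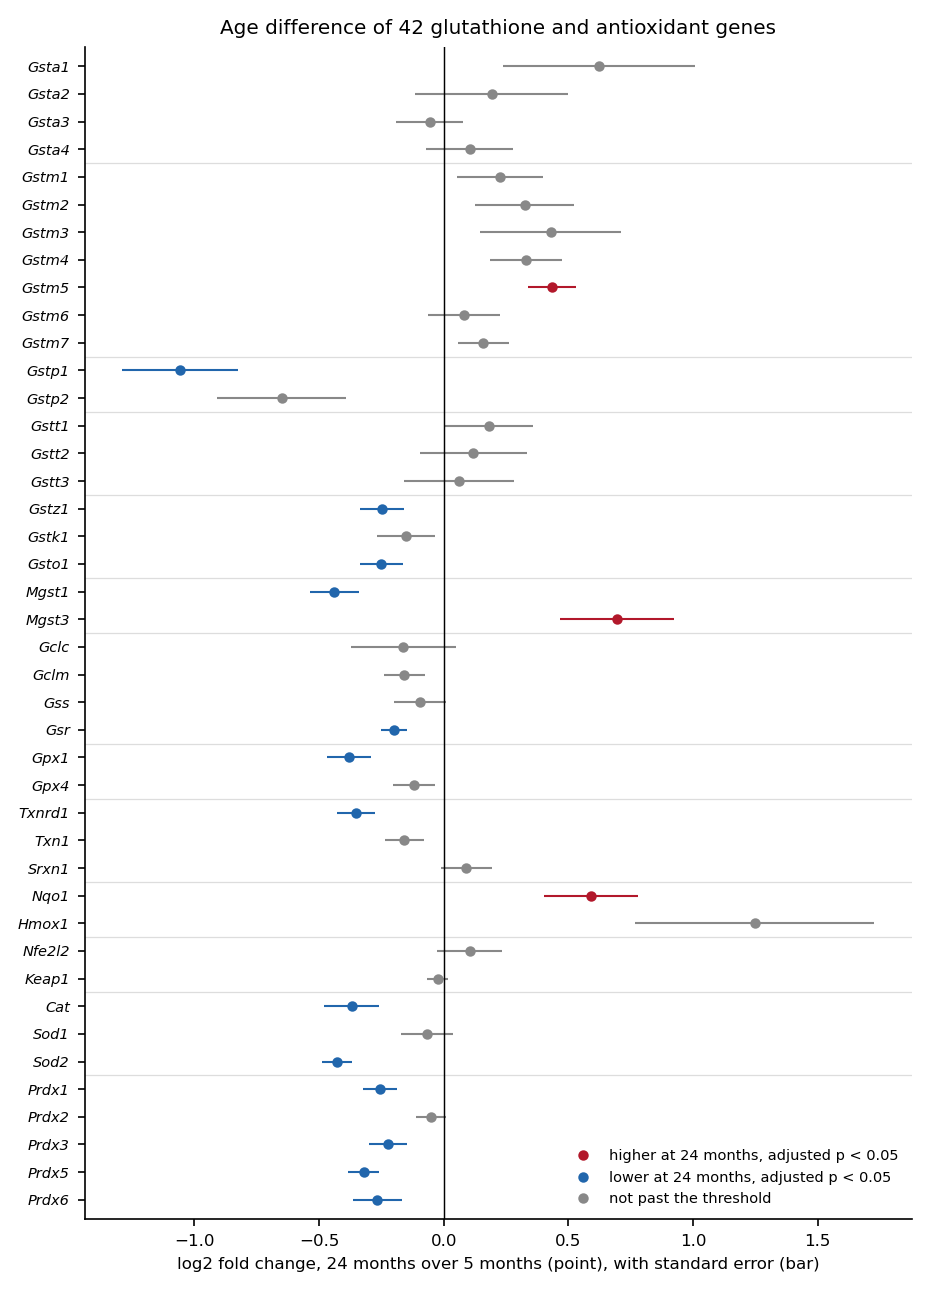
Age difference of each member, grouped by role. The horizontal axis is the log2 fold change of 24-month over 5-month mice with its standard error, and colour marks the 13 members lower and 3 members higher at an adjusted p under 0.05; Gstp1 lies farthest to the left at -1.06.

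The core antioxidant response element was searched in the RefSeq promoter sequences of the members (build GRCm38.p6, 250 bases before to 50 bases after each gene start). The motif was TGACNNNGC on either strand, the latter reading GCNNNGTCA, with no other motif searched. Promoters were listed for 36 members; Gsta4, Gstt2, Gclc, Gsr, Hmox1 and Prdx6 had no entry. The motif was present for 10 of the 36 (27.8%), beside 17% of 9510 tested genes with a promoter entry and 7 of 24 other NRF2 target genes (29.2%). Of these 10 members, 1 was higher and 3 were lower in old mice, and of the 26 without a match 2 were higher and 8 were lower. Over all genes tested 16.3% were higher and 14.5% lower. Whether members with and without a match differ in their calls was not tested. The 4 members with a match that passed the age threshold are shown first. Gclm and Nfe2l2 itself follow, neither of which passed it. Capitals mark the match, and each stretch is read 5′ to 3′ along the gene.
Gstm5 (chr3:107895802-107895831, plus strand): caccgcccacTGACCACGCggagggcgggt
Mgst1 (chr6:138140461-138140490, plus strand): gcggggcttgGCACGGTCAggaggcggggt
Prdx1 (chr4:116685456-116685485, plus strand): cagggaaagcGCTGAGTCAtcccccgtagg
Txnrd1 (chr10:82859104-82859133, plus strand): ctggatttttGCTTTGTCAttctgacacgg
Gclm (chr3:122245413-122245442, plus strand): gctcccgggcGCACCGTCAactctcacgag
Nfe2l2 (chr2:75704884-75704913, minus strand): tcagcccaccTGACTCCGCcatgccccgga
Counted from the gene start of the RefSeq promoter entry, which for Mgst1 lies upstream of the start in the count table, the matches began at -42 in Gstm5, -56 in Mgst1, -133 in Prdx1, -92 in Txnrd1, -134 in Gclm and -240 in Nfe2l2. Gsta3, Gstm7, Sod1 and Srxn1 held the others. A match describes the letters in this window and says nothing of binding.

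The regulators themselves did not pass the test. Nfe2l2 on chromosome 2 (75675513 to 75704663) ranged from 36.9 to 84.6 CPM in young mice (median 48.9, n = 10) and from 46.7 to 74.2 CPM in old mice (median 56.3, n = 9). The old range lay within the young range, a difference of 0.10 on the log2 scale (SE 0.130, adjusted p in edgeR = 0.569). Keap1 on chromosome 9 (21229730 to 21239332), the sensor that targets NRF2 for degradation, stood at 50.9 to 58.3 CPM in young mice (median 54.3) and 51.8 to 56.8 CPM in old mice (median 53.1). Its log2 fold change was -0.02 (SE 0.0421, adjusted p in edgeR = 0.698). An antisense transcript overlaps 10.9% of Keap1's exon bases in GENCODE M21, and the strand setting of the counting is not given in the sources used here.

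Gstp1, the pi-class transferase, gave the largest fall among the members. It lies on chromosome 19 (4035411 to 4037912) beside Gstp2 and is known to be more abundant in male than in female mouse liver. Young mice held 1434 to 2965 CPM (median 2533) and old mice 401.9 to 1880 CPM (median 1232). Of the 9 old mice, 7 lay below the lowest young mouse and all 9 lay below the young median. The log2 fold change was -1.06 (SE 0.233, adjusted p in edgeR = 0.00309), a level 2.08-fold lower in old mice, and it passed in all 19 fits that left out 1 mouse each. On the first cull day the ranges were 1434 to 2689 CPM in young and 401.9 to 1418 CPM in old mice, without overlap, and that day alone did not pass (-1.33, adjusted p in edgeR = 0.0627). On the second they were 1719 to 2965 and 929.3 to 1880 CPM, and it passed (-0.75, adjusted p in edgeR = 0.0285). Old mice 1181, 1189 and 1187 held the lowest values, at 401.9, 454 and 773 CPM.

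Gstp2, the neighbouring copy (4040288 to 4042221), was counted at a far lower level. It ranged from 78.3 to 174.2 CPM in young mice (median 131.9) and from 28.1 to 180.7 CPM in old mice (median 79.6), and the ranges overlapped. The log2 fold change was -0.65 (SE 0.259, adjusted p in edgeR = 0.0628), which did not pass. It passed in DESeq2 (-0.66, adjusted p = 0.0293) and in 4 of the 19 fits without 1 mouse, those without old mouse 1183, 1236 or 1238 or young mouse 1239. The copies are close in sequence: 52.8% of all 100-base windows of the Gstp1 transcript also occur in Gstp2. Gstp2 made up 4.36% to 6.60% of the pair's counts in young mice and 5.601% to 8.77% in old mice. How reads that match both were assigned is not given in the sources used here, so the division between them is uncertain. With both summed to 1 row, the log2 fold change was -1.03 (SE 0.234, adjusted p in edgeR = 0.00374). Gstp3, the next gene of the cluster (4057487 to 4059294), moved the other way. It rose from 6.07 to 13.5 CPM in young mice (median 8.41) to 10.9 to 21.6 CPM in old mice (median 13.4), a difference of 0.69 on the log2 scale (SE 0.139, adjusted p in edgeR = 0.00178).

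**Figure D2:**
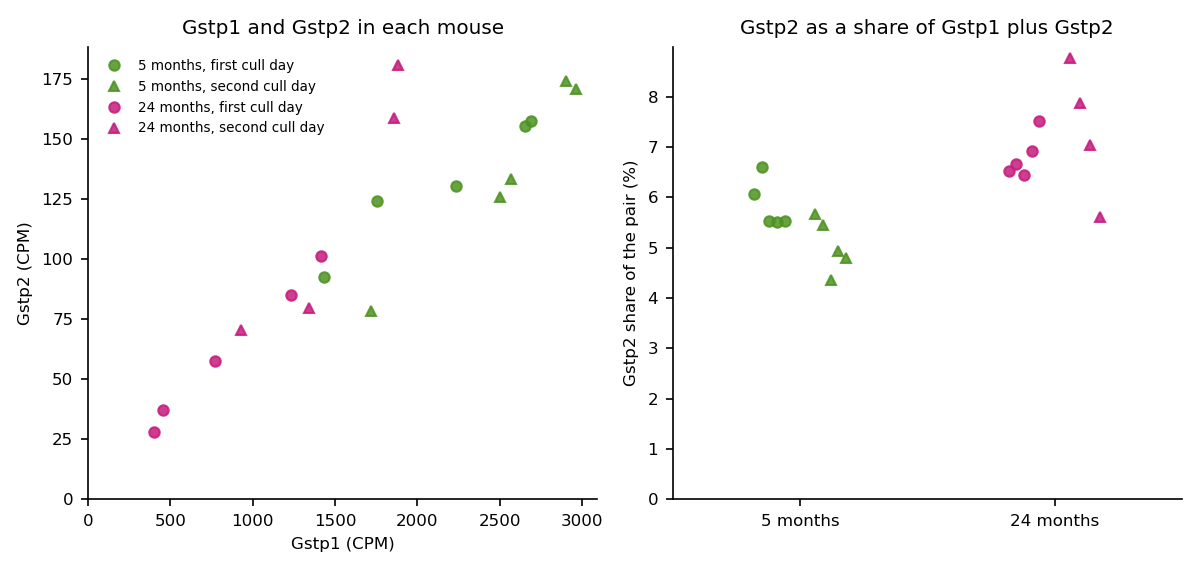
Gstp1 against Gstp2 in CPM for each of the 19 mice (left), and Gstp2 as a percentage of the sum of both (right), by age and cull day. Old mice sit at lower Gstp1, from 401.9 to 1880 CPM against 1434 to 2965 CPM in young mice, and the Gstp2 share stays between 4.36% and 8.77%.

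The alpha class, which includes inducible Gsta1 and Gsta2 and the abundant Gsta3, did not pass for any of its 4 members. Gsta3 on chromosome 1 (21240585 to 21265575) ranged from 1102 to 2474 CPM in young mice (median 1703) and from 931.3 to 1870 CPM in old mice (median 1742), a difference of -0.06 on the log2 scale (SE 0.134, adjusted p in edgeR = 0.778). Gsta4, which conjugates the lipid peroxidation product 4-hydroxynonenal, had a log2 fold change of 0.10 (SE 0.173), and -0.15 without young mice 1184, 1186 and 1188. The medians of Gsta3 and Gsta4 therefore differed little between ages, while single mice differed by more than 2-fold. Gsta1 ranged from 5.25 to 24.6 CPM in young mice (median 9.19) and from 5.95 to 51.4 CPM in old mice (median 11.1), a difference of 0.62 on the log2 scale (SE 0.386, adjusted p in edgeR = 0.228). Without old mouse 1187, which held the 51.4 CPM, the next old mouse was at 20.8 CPM and the Gsta1 difference was 0.15. Gsta2 had a log2 fold change of 0.19 (SE 0.307), which was -0.22 without young mice 1184, 1186 and 1188 and 0.06 without old mouse 1187. Of the 100-base windows of Gsta1, 71.3% also occur in the neighbouring copy Gm3776 and 19.8% in Gsta2. The pair summed to 1 row gave 0.34 (SE 0.323, adjusted p in edgeR = 0.448), which did not pass either.

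The mu class forms a cluster on chromosome 3 between 107895854 and 108044856, and all 7 members had a positive log2 fold change, from 0.08 for Gstm6 to 0.43 for Gstm5. Without young mice 1184, 1186 and 1188, Gstm1 (-0.03) and Gstm6 (-0.12) were negative, as were Gstm1, Gstm3 and Gstm6 on the second cull day alone. Only Gstm5 passed. It rose from 6.43 to 9.22 CPM in young mice (median 7.27) to 7.41 to 13.8 CPM in old mice (median 9.63), a difference of 0.43 on the log2 scale (SE 0.0962, adjusted p in edgeR = 0.00332). All 9 old mice exceeded the young median and 5 exceeded every young mouse. The Gstm5 call ended with the other-cell score (0.33, adjusted p in edgeR = 0.0741) and on the first cull day alone (0.22, adjusted p = 0.261). An antisense transcript covers 13.9% of Gstm5's exon bases. Gstm1, the most abundant mu transferase, stood at 662.7 to 1466 CPM in young mice (median 1171) and 762.9 to 2060 CPM in old mice (median 1206), and did not pass (log2 fold change 0.22, SE 0.172, adjusted p in edgeR = 0.337). Gstm3 had 118.9 CPM in old mouse 1187 while the remaining old mice held 19.7 to 44.8 CPM, and its difference was 0.43 (SE 0.282) with all mice and 0.07 without mouse 1187. Gstm4, at 0.33 (adjusted p in edgeR = 0.0874), passed in limma-voom (0.36, adjusted p = 0.0488) and with the other-cell score (0.54, adjusted p in edgeR = 0.0465). It was 0.09 without young mice 1184, 1186 and 1188 (adjusted p in edgeR = 0.577) and 0.01 on the second cull day alone (adjusted p = 0.978).

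Theta-class Gstt1, Gstt2 and Gstt3, neighbours on chromosome 10, did not pass, with log2 fold changes of 0.18 (SE 0.178), 0.12 (SE 0.214) and 0.06 (SE 0.221). Without young mice 1184, 1186 and 1188 all 3 were negative, at -0.08, -0.20 and -0.23. Gstz1, the zeta enzyme of tyrosine breakdown, and Gsto1, the omega enzyme, were slightly lower in old mice. Gstz1 fell from a median of 598.5 to 532.8 CPM, a difference of -0.25 on the log2 scale (SE 0.0885, adjusted p in edgeR = 0.0398). Gsto1 fell from a median of 77.9 to 58.7 CPM, also -0.25 (SE 0.0853, adjusted p in edgeR = 0.0322). All 9 old mice lay below the young median for both genes. The Gstz1 call held in 9 of 19 fits without 1 mouse (largest adjusted p = 0.0780) and the Gsto1 call in 14, being lost without young mouse 1182 or 1243 or old mouse 1238, 1240 or 1242 (largest adjusted p = 0.0840). Neither passed with the other-cell score, at -0.06 for Gstz1 (adjusted p in edgeR = 0.709) and -0.13 for Gsto1 (adjusted p = 0.407). Gsto1 was -0.06 on the first cull day (adjusted p in edgeR = 0.782) and -0.47 on the second (adjusted p = 0.00422). Gstk1, the kappa enzyme of mitochondria and peroxisomes, did not pass (-0.15, SE 0.118).

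The membrane-bound pair moved in opposite directions. Mgst1, among the most abundant transferases of liver microsomes and mitochondria, lies on chromosome 6 (138140537 to 138156752). It fell from 2614 to 4180 CPM in young mice (median 2869) to 1814 to 2616 CPM in old mice (median 2245). The log2 fold change was -0.44 (SE 0.0971, adjusted p in edgeR = 0.00324), a fall by 26.2%, and 7 of 9 old mice lay below all young mice. The Mgst1 call ended with the other-cell score (-0.34, adjusted p in edgeR = 0.0753) and on the first cull day alone (-0.41, adjusted p = 0.121). Mgst3 on chromosome 1 (167372384 to 167393797), a low-abundance member, rose from 4.77 to 19.4 CPM in young mice (median 11.6) to 12.1 to 25.7 CPM in old mice (median 16.9), a difference of 0.70 on the log2 scale (SE 0.228, adjusted p in edgeR = 0.0273). The lowest young values, 4.77 to 5.25 CPM, were those of mice 1184, 1186 and 1188. Without these 3 mice the Mgst3 difference was 0.32 and did not pass (adjusted p in edgeR = 0.158), and leaving out 1188 alone ended the call (0.60, adjusted p in edgeR = 0.0510). Neither cull day alone passed, at 1.11 on the first (adjusted p in edgeR = 0.0866) and 0.25 on the second (adjusted p = 0.345).

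Of the genes that make and recycle glutathione, only Gsr passed. Gsr, the reductase that restores glutathione from its oxidised form, lies on chromosome 8 (33653238 to 33698162). It fell from 63.5 to 75.2 CPM in young mice (median 69.8) to 54.6 to 73.1 CPM in old mice (median 61.0), a difference of -0.20 on the log2 scale (SE 0.0532, adjusted p in edgeR = 0.00994). Apart from mouse 1189 at 73.1 CPM, every old mouse lay below the lowest young mouse. The Gsr call was lost with the other-cell score (-0.20, adjusted p in edgeR = 0.0669). Neither cull day alone passed, at -0.19 on the first (adjusted p in edgeR = 0.202) and -0.21 on the second (adjusted p = 0.0990). Gclc on chromosome 9 (77754535 to 77794489), the catalytic subunit of the rate-limiting ligase, differed widely among young mice. It ranged from 139.6 to 463.0 CPM in young mice (median 332.4) and from 183.6 to 397.2 CPM in old mice (median 270.3), and did not pass (-0.16, SE 0.212, adjusted p in edgeR = 0.590). Without young mice 1184, 1186 and 1188, which held 180.0, 168.5 and 139.6 CPM, the Gclc difference was -0.49 and passed (adjusted p in edgeR = 0.0331). Gclm, the modifier subunit on chromosome 3 (122245557 to 122267215), ranged from 115.5 to 157.2 CPM in young mice (median 127.6) and from 100.8 to 153.5 CPM in old mice (median 109.5), a difference of -0.16 on the log2 scale (SE 0.0831, adjusted p in edgeR = 0.156). It passed without old mouse 1189 (-0.22, adjusted p in edgeR = 0.0231) and in limma-voom (-0.19, adjusted p = 0.0465). Gss, glutathione synthetase, had -0.09 (SE 0.105).

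Sod2, the manganese superoxide dismutase of mitochondria, was the only member whose ages did not overlap. It lies on chromosome 17 (13007839 to 13018119) and fell from 178.6 to 212.9 CPM in young mice (median 190.0) to 127.6 to 161.7 CPM in old mice (median 144.6). Every old mouse was below every young mouse, which held for 0.725% of all genes tested. No member had every old mouse above every young mouse, beside 0.994% of all genes. The log2 fold change was -0.43 (SE 0.0594, adjusted p in edgeR = 9.38e-05), and the difference was present on the first cull day alone (-0.47, adjusted p in edgeR = 0.0359) and on the second (-0.38, adjusted p in edgeR = 0.00797). Cytosolic Sod1, by contrast, stood at 525.0 to 1167 CPM in young and 504.4 to 887.5 CPM in old mice and did not pass (-0.07, SE 0.105, adjusted p in edgeR = 0.651). The difference between the Sod1 and Sod2 changes was not tested.

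Catalase and the main cytosolic glutathione peroxidase, both of which break down hydrogen peroxide, also fell. Cat on chromosome 2 (103453904 to 103485153) went from 1965 to 3201 CPM (median 2777) to 1507 to 2464 CPM (median 2065), a difference of -0.37 on the log2 scale (SE 0.110, adjusted p in edgeR = 0.0174). Gpx1 on chromosome 9 (108339080 to 108340344) went from 1149 to 1786 CPM (median 1379) to 867.3 to 1331 CPM (median 1013), a difference of -0.38 on the log2 scale (SE 0.0879, adjusted p in edgeR = 0.00437). All 9 old mice lay below the young median for both genes. With the other-cell score neither passed, at -0.14 for Cat (adjusted p in edgeR = 0.429) and -0.31 for Gpx1 (adjusted p = 0.0624). Gpx4, which reduces lipid hydroperoxides in membranes, did not pass (-0.12, SE 0.0833, adjusted p in edgeR = 0.292), and 55.5% of its 100-base windows also occur in the pseudogene Gpx4-ps2.

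The 5 peroxiredoxins of the set, thiol peroxidases that work with thioredoxin or glutathione, gave 4 lower, beside 14.5% of all genes. Prdx4, outside the set, was higher (0.32, SE 0.100, adjusted p in edgeR = 0.021). Prdx5 on chromosome 19 (6906819 to 6909645), found in mitochondria, peroxisomes and cytosol, fell by 0.32 on the log2 scale (SE 0.0615, adjusted p in edgeR = 0.00122), from a young range of 157.0 to 202.7 CPM to an old range of 116.5 to 164.3 CPM. Exons of Trmt112 on the opposite strand cover 19.1% of Prdx5's exon bases. Cytosolic Prdx1 fell by 0.25 (SE 0.0689, adjusted p in edgeR = 0.0105) and mitochondrial Prdx3 by 0.22 (SE 0.0747, adjusted p in edgeR = 0.0296). The Prdx3 call was lost without old mouse 1238, 1240 or 1242 or young mouse 1243 (largest adjusted p = 0.0588). Prdx6, the glutathione-dependent member, was at -0.27 (SE 0.0992, adjusted p in edgeR = 0.0483) and held in 5 of the 19 fits without 1 mouse (largest adjusted p = 0.103). Prdx2 did not pass (-0.05, SE 0.0604). With the other-cell score Prdx5 kept its call, while Prdx1 (-0.20, adjusted p in edgeR = 0.131), Prdx3 (-0.17, adjusted p = 0.245) and Prdx6 (-0.11, adjusted p = 0.552) did not. Prdx2 and Cat are also abundant in red cells, and the 8 red-cell markers summed to 92.7 to 163.9 CPM in young and 76.8 to 122.7 CPM in old mice, a sum made up mostly of Alas2 (young median 115.6 CPM), which was lower (-0.50). The globins were below 1 CPM at the median, with Hba-a1 at medians of 0.44 CPM in young and 0.75 CPM in old mice (log2 fold change 1.93). The part of red cells in the Cat and Prdx2 values was not tested.

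Among the members of the thioredoxin system, Txnrd1 fell, while Txn1 and Srxn1 did not pass. Outside the set, Txn2 was lower (-0.26, SE 0.0709, adjusted p in edgeR = 0.0103), while Txnrd2, Txnrd3 and Txnip did not pass. Txnrd1, the selenoprotein reductase of cytosolic thioredoxin and a well-known NRF2 target, lies on chromosome 10 (82859206 to 82897724). It went from 139.2 to 199.5 CPM in young mice (median 150.1) to 110.4 to 139.4 CPM in old mice (median 124.8), a difference of -0.35 on the log2 scale (SE 0.0761, adjusted p in edgeR = 0.00284). The ranges touched only at 139.4 CPM in old mouse 1189, so 8 of 9 old mice lay below every young mouse. The 3 highest young values, 174.9 to 199.5 CPM, were those of mice 1184, 1186 and 1188, without which the Txnrd1 difference was -0.23. The call ended on the second cull day alone (-0.20, adjusted p in edgeR = 0.118). Txn1, thioredoxin itself, had -0.16 (SE 0.0782, adjusted p in edgeR = 0.131) and passed in limma-voom (-0.20, adjusted p = 0.0431). Srxn1 on chromosome 2 (152105524 to 152111376), the sulfiredoxin that repairs overoxidised peroxiredoxins, stood at 28.6 to 54.9 CPM in young mice (median 35.4) and 32.0 to 52.5 CPM in old mice (median 38.0), a difference of 0.09 on the log2 scale (SE 0.102, adjusted p in edgeR = 0.520).

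The classical inducible enzymes Nqo1 and Hmox1 were counted at low levels. Nqo1, the quinone reductase on chromosome 8 (107388225 to 107403205), rose from 2.80 to 7.05 CPM in young mice (median 4.03) to 4.49 to 10.2 CPM in old mice (median 5.69). Its log2 fold change was 0.59 (SE 0.190, adjusted p in edgeR = 0.0250), and all 9 old mice exceeded the young median. Old mice 1187 (10.2 CPM) and 1181 (9.43 CPM) were the only ones above the highest young mouse. The call was lost without old mouse 1187 (0.48, adjusted p in edgeR = 0.0502) or young mouse 1188 (0.52, adjusted p in edgeR = 0.0504). Without young mice 1184, 1186 and 1188 it was 0.46 (adjusted p in edgeR = 0.131), and with the other-cell score 0.47 (adjusted p = 0.197). On the first cull day alone the Nqo1 difference was 0.94 (adjusted p in edgeR = 0.0585) and on the second 0.20 (adjusted p = 0.546).

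Hmox1, the haem-degrading enzyme on chromosome 8 (75093618 to 75100593), is known to be high in macrophages that clear red cells. It ranged from 6.22 to 28.3 CPM in young mice (median 10.5) and from 3.95 to 144.7 CPM in old mice (median 17.6). Old mouse 1187 held the 144.7 CPM and the next old mouse 33.3 CPM, while old mouse 1183 held the 3.95 CPM. The same 2 mice had the highest and lowest summed macrophage markers of the old group, 3371 and 70.04 CPM. The log2 fold change was 1.25 (SE 0.48, adjusted p in edgeR = 0.0546), which did not pass. It passed in DESeq2 (1.24, adjusted p = 0.0387) and on the second cull day alone (1.05, adjusted p in edgeR = 0.00468). Of the 19 fits without 1 mouse it passed in 5 (smallest adjusted p in edgeR = 0.0198). Leaving out 1187 moved it to 0.43 (adjusted p in edgeR = 0.345). With the other-cell score, the Hmox1 difference turned negative and passed (-0.78, adjusted p in edgeR = 0.0165).

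**Figure D3:**
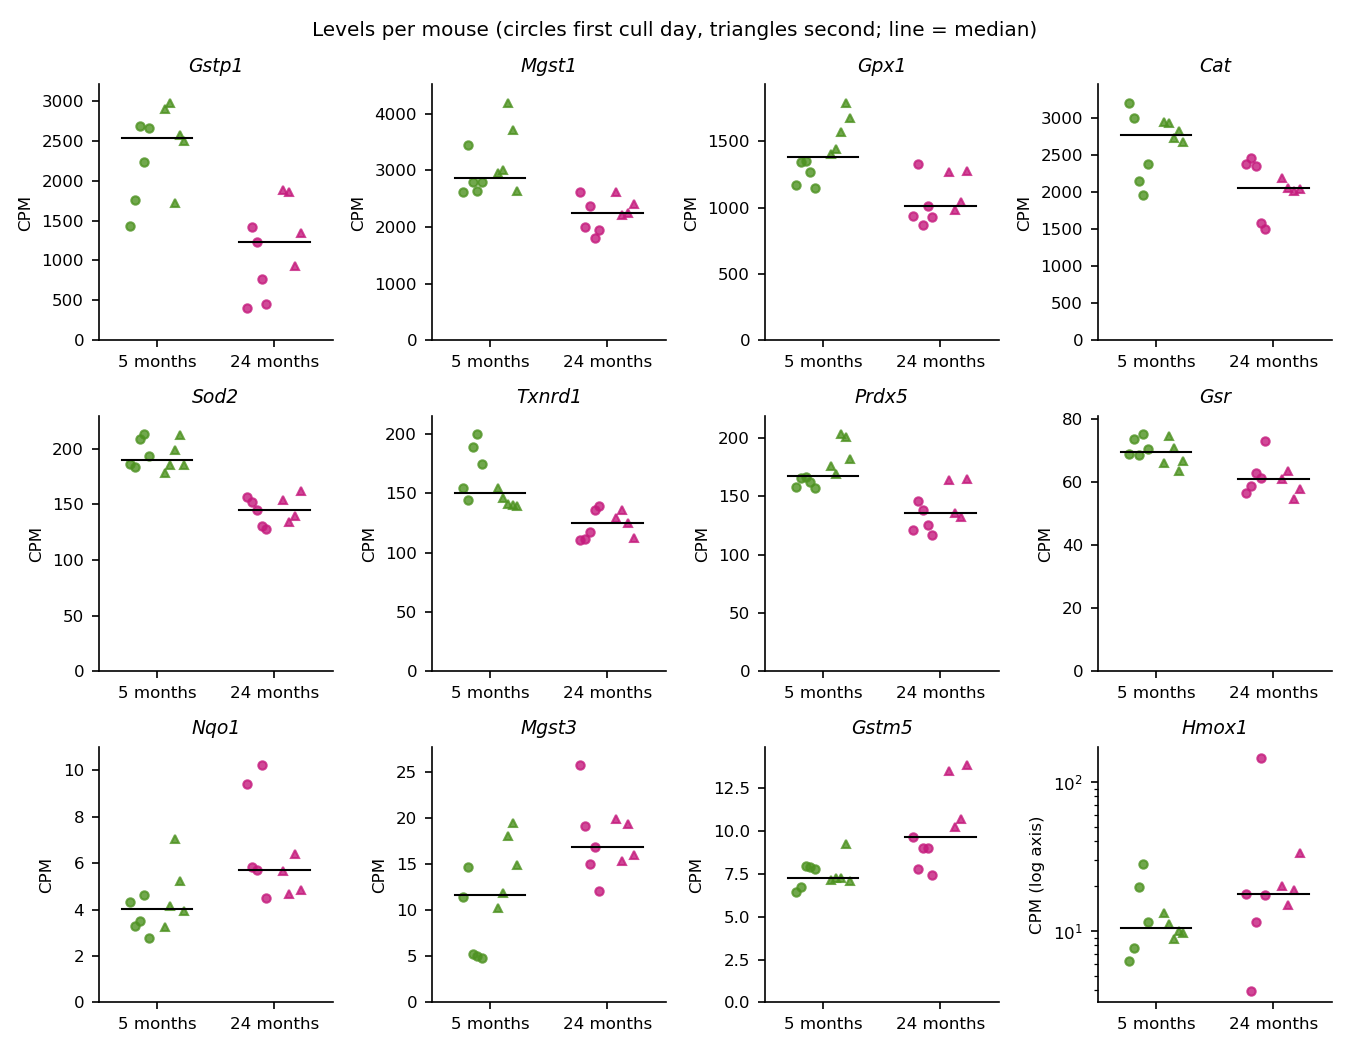
CPM of 12 members in each mouse by age, with circles for the first cull day, triangles for the second and a line at the median of each age; the Hmox1 axis is logarithmic. Sod2 shows no overlap between ages (178.6 CPM or more in young mice, 161.7 CPM or less in old mice), and 1 old mouse stands apart in Hmox1 at 144.7 CPM.

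Levels were compared between genes per kilobase of the table's transcript length. In young mice the highest medians were 3447 CPM per kilobase for Gstp1 and 3062 for Mgst1, ranks 21 and 22 among the 12269 tested genes. Gpx1 (1322), Gsta3 (1132), Sod1 (1128) and Cat (1095) came next. In old mice Mgst1 led at 2396 CPM per kilobase (rank 29), ahead of Gstp1 at 1676 (rank 35). The table gives Gsta3 a length of 1505 bases, while the GENCODE M21 transcript of the same accession has 742 bases, so its place depends on that length. At the other end Nqo1 stood at 2.61 CPM per kilobase in young and 3.68 in old mice. All 42 members together took 1.44% to 2.15% of the counts over genes in young mice and 1.05% to 1.61% in old mice.

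Many members were low or high in the same mice. In 18 of 42 members (42.9%) the 3 lowest young mice were exactly 1184, 1186 and 1188, which was so for 11.1% of all genes tested. These 18 included all 4 alpha and all 3 theta transferases, Gstm1, Gstm4, Gstm6, Gclc, Cat, Sod1 and Prdx6. Gsta2 was at 9.14 to 13.6 CPM in these mice and at 21.8 to 62.5 CPM in the other young mice, and Gstt1 at 121.0 to 138.0 CPM against 199.6 to 352.3 CPM. Young mice 1239 and 1243 of the second cull day held the highest young value of 12 and 17 members. Among old mice, 1189 held the lowest value of 19 members, among them all 4 alpha transferases, Cat, Sod2 and Prdx5, and the highest of 5, namely Gclm, Gss, Gsr, Txnrd1 and Prdx3. Old mouse 1187 held the highest Gsta1, Gsta2, Gstm1, Gstm3, Nqo1, Srxn1, Nfe2l2 and Hmox1. It also held the lowest Gstm7, Gstt3, Gstz1, Gstk1, Mgst1, Gclc and Gclm. The part of the acute-phase and macrophage values in these patterns was not tested. Without mice 1184, 1186, 1188 and 1187, an alternative chosen after seeing the data, 13 members were lower and 2 higher, beside 12.6% and 15.7% of all genes. Mgst3, Nqo1 and Prdx3 were then no longer past the threshold, while Gclc (-0.45) and Hmox1 (0.98) were. Without the 3 young mice alone 13 were lower and 1 higher, beside 12.5% and 14.6%.

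**Figure D4:**
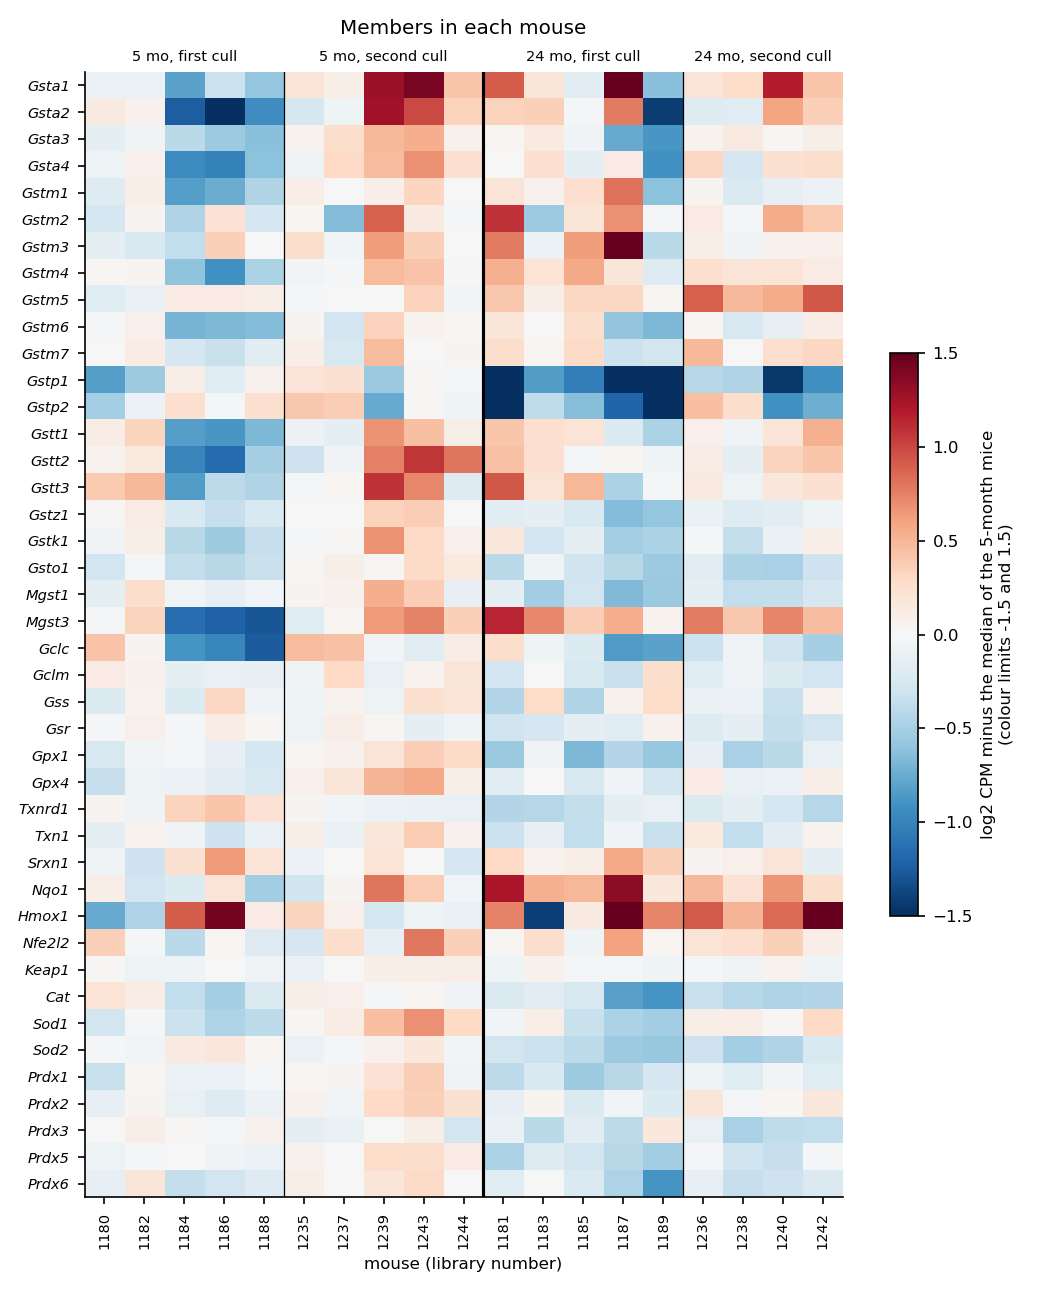
Log2 CPM of each member (rows) in each mouse (columns), as the difference from the median of the 5-month mice. Mice 1184, 1186 and 1188 are pale to dark blue across the alpha and theta transferases and Gclc, while Sod2 and Gstp1 are blue in every 24-month mouse.

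The age difference was also taken on each cull day. All 13 lower members were negative and all 3 higher members positive on both days. On the first day alone 2 members were lower, Sod2 and Txnrd1, and 0 higher, beside 1.79% and 1.88% of all genes. On the second day 9 were lower and 2 higher, beside 7.15% and 12.2%, counts that include Gclc and Hmox1, which did not pass with both days. Of the 16 calls, 7 were lost on the second day (Gstz1, Mgst3, Gsr, Txnrd1, Nqo1, Prdx1 and Prdx3), and all of these but Txnrd1 passed on neither day alone. Another 15 members were positive on the first day and negative on the second, and 10 of these were transferases, such as Gsta1 (1.36 and -0.21) and Gstm3 (0.98 and -0.21). None was negative on the first day and positive on the second. The difference itself was tested by an age by cull day interaction, which no member passed (0 of 42 in edgeR, smallest adjusted p = 0.7), with 9 members at an unadjusted p under 0.05. Over all genes 0 of 12269 passed (0%) and 6.51% had an unadjusted p under 0.05. Mice 1184, 1186, 1188, 1187 and 1189 all belong to the first day.

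**Figure D5:**
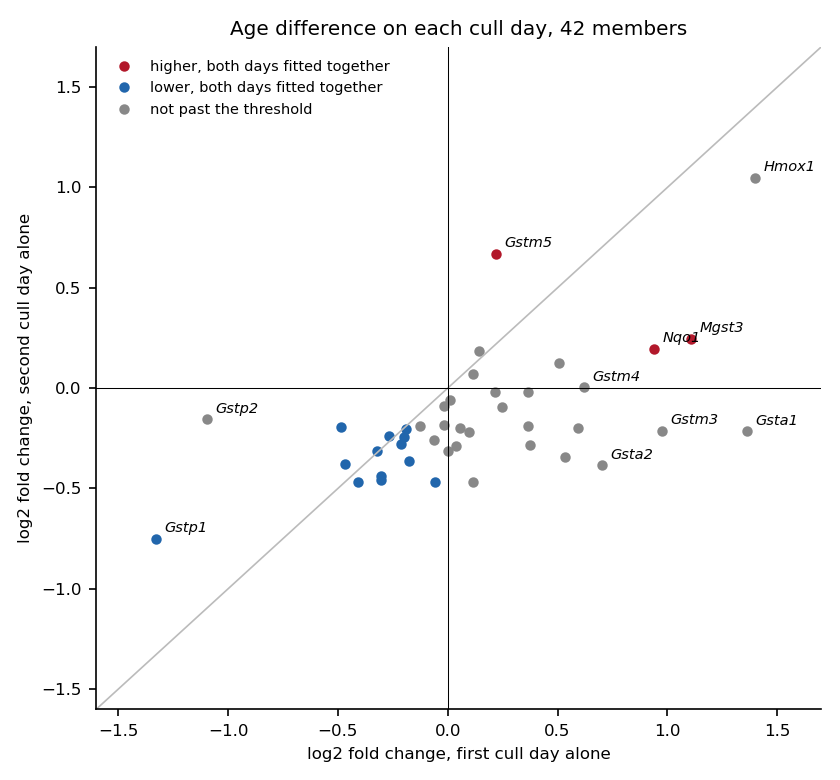
Log2 fold change of old over young mice on the first cull day (horizontal) against the second (vertical) for the 42 members, with the line of equal values in grey. Points below the horizontal zero line and right of the vertical one are the 15 members positive on the first day and negative on the second.

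Other genes of the pathway were tested in the same fit, 78 in all, of which 8 were higher and 17 lower in old mice, to be read against 16.3% and 14.5% of all genes. Among 26 other NRF2 target genes, 3 were higher and 4 lower, with a median log2 fold change of -0.05, so the counts lay near or below those shares. The higher ones were G6pdx, the entry enzyme of the pentose phosphate route to NADPH (1.13, SE 0.304, adjusted p in edgeR = 0.00999), the efflux pump gene Abcc4 (0.92, SE 0.216) and Akr1b8 (0.78, SE 0.236). G6pdx had 31.3 CPM in its highest old mouse and a median of 10.4 CPM in old against 5.22 CPM in young mice. The lower ones were Ugdh, which makes the donor for glucuronidation (-0.36, SE 0.0837), Ftl1 for ferritin light chain (-0.31, SE 0.0942), the canalicular pump gene Abcc2 (-0.43, SE 0.145) and Aldh1a1 (-0.29, SE 0.107). Among 13 other regulators of NRF2, 3 were lower and 0 higher. Bach1, a repressor at antioxidant response elements, fell from a young median of 30.01 to an old median of 21.6 CPM (-0.69, SE 0.160, adjusted p in edgeR = 0.00426). Cul3, the ubiquitin ligase scaffold that works with KEAP1, fell slightly (-0.19, SE 0.0533), as did the kinase gene Gsk3b (-0.35, SE 0.0939).

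In a list of 39 tested genes of glutathione and thiol metabolism, 5 were higher and 10 lower, beside the same 16.3% and 14.5% of all genes, with a median log2 fold change of -0.07. The 4 lower genes with the smallest p were Cth, Ahcy, Sephs2 and Gnmt. Cth, which releases cysteine from cystathionine, fell from a young median of 355.6 to an old median of 225.2 CPM (-0.74, SE 0.131, adjusted p in edgeR = 0.000623). Ahcy (-0.56, SE 0.108) and Gnmt (-0.45, SE 0.112) of the methionine cycle and Sephs2 of selenoprotein synthesis (-0.33, SE 0.0692) also fell. The higher genes were Ggt5, a membrane enzyme acting on extracellular glutathione conjugates (1.67, SE 0.289), Sod3 and Gpx3, whose enzymes are secreted (1.89, SE 0.351, and 1.67, SE 0.356), Gstp3 as above and Prdx4 of the endoplasmic reticulum (0.32, SE 0.100). Ggt5 and Gpx3 had young medians of 0.41 and 0.44 CPM. Over the 78 genes, DESeq2 gave 26 lower and library totals alone 11. With the other-cell score 5 were higher and 4 lower, and on the first cull day alone 3 were higher and 1 lower. Most of the 17 lower calls were thus lost in each of these 2 fits.

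Genes that mark position along the liver lobule and other cells were read beside these results. Over all genes 16.3% were higher and 14.5% lower. Of 10 periportal genes 7 were lower and 0 higher (median log2 fold change -0.46), and of 10 pericentral genes 3 were lower and 0 higher (median -0.25). Of 14 acute-phase genes none passed (smallest adjusted p in edgeR = 0.106). Their sum was 11820 to 34480 CPM in old mice, above the 7 young mice other than 1184, 1186 and 1188 (at most 9659 CPM) and below those 3 (at least 35670 CPM). Markers of macrophages were higher for 13 of 14 genes tested, of endothelial cells for 10 of 14 and of stellate cells for 13 of 14. The endothelial markers summed to 195.0 to 357.2 CPM in young and 211.9 to 666.7 CPM in old mice. Of the lymphocyte, neutrophil and cholangiocyte markers only 1, 1 and 3 genes passed the filter, and the lymphocyte markers summed to at most 3.15 CPM in young mice and 43.6 CPM in old mouse 1187. With the score of these other cell types as a covariate, 4 of the 13 lower members kept their call, namely Gstp1 (-1.02, adjusted p in edgeR = 0.0207), Sod2 (-0.41, adjusted p = 0.00224), Txnrd1 (-0.47, adjusted p = 0.00194) and Prdx5 (-0.28, adjusted p = 0.0264). The fifth lower member was Hmox1, whose direction reversed. Of the 3 higher members Mgst3 kept its call (1.02, adjusted p in edgeR = 0.0209), and Gstm4 was added. Mgst1 (-0.34, adjusted p in edgeR = 0.0753) and Gsr (-0.20, adjusted p = 0.0669) were among the calls lost, with the others given above. Because the score was mostly higher in old mice, kept and lost calls do not separate age from other cells.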

How the data were processed

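The authors deposited a table of estimated counts per gene, raw and in multiples of 0.5; per the file headers it was made with HOMER's analyzeRepeats.pl on mm10 (GRCm38), counting exons of RefSeq transcripts condensed to genes, with a length for each. STAR and HOMER are named, without versions, in the submitters' processing notes. Strand setting and the handling of reads with several matches are not given in the sources used here. Of each library's total in the header, 78.3% to 86.5% was in genes. Counts were rounded, filtered with filterByExpr by age (minimum count 10) and tested with edgeR 4.0.16 (R 4.3.3): quasi-likelihood, TMM scaling, cull day as covariate, Benjamini-Hochberg adjustment over all 12269 genes, threshold 0.05. CPM use TMM-scaled totals. Standard errors are the absolute log2 fold change over the root of the F statistic. The other-cell score used log2 CPM with a prior count of 2. The scripts were tested on simulated data. Alternatives used limma 3.58.1, DESeq2 1.42.0, other scalings, filters and left-out mice. Members and lists were chosen with earlier results of these data known. Members past the threshold with a log2 fold change of at least 0.5, non-overlapping members and 9 regulators and targets get full values, and others get fewer. From each list of other pathway genes up to 4 per direction with the smallest p are named. Prdx4, Txn2 and the genes of these lists named as not passing were added after their values were seen. P-values measure the spread between mice as labelled.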

Additional observations from a re-analysis of the deposited data

Results flagged for a closer look

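Single mice lay far from the rest of their age group in 8 of the 84 member and age combinations examined. The rule, the gap to the next mouse over the range, flags about 1 in 20 for normally distributed values in independent combinations. The same mice recur among the flags, so this rate is no measure of an excess here. Old mouse 1187 stood above the other old mice in Hmox1 (144.7 CPM, next 33.3), Gstm3 (118.9 CPM, next 44.8), Gsta1 (51.4 CPM, next 20.8) and Gstm1 (2060 CPM, next 1400). Young mouse 1239 stood above the other young mice in Gstm2 (52.1 CPM, next 32.7) and Gstm7 (58.9 CPM, next 45.7). Old mouse 1189 had 73.1 CPM of Gsr (next 63.5), and young mouse 1186 had 54.9 CPM of Srxn1 (next 41.5).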

How the results depend on the processing

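Counts of members past the threshold were 3 higher and 13 lower. In the first cull day alone they were 0 and 2, and with the other-cell score 5 were lower. Without young mice 1184, 1186 and 1188, 1 was higher. Leaving out each mouse in turn gave 1 to 4 higher and 9 to 14 lower members, 8 to 11 higher and 12 to 19 lower other pathway genes, and 0 interactions throughout. The 1 higher member came without young mouse 1188. Other pathway genes were 8 higher and 17 lower, and moved to 3 and 1 on the first cull day, 5 higher on the second, 5 and 4 with the other-cell score, 11 lower with library totals alone, 26 lower in DESeq2 and 27 lower without mice 1184, 1186, 1188 and 1187. Hmox1 reversed with the other-cell score (-0.78). Fewer mice enter the single-day fits; the cause of the other shifts was not tested. All 16 members past the threshold kept their call with DESeq2, limma-voom, DESeq2 scaling, unrounded counts and no filter. With no cull day term Gstz1, Mgst3, Prdx3 and Prdx6 lost theirs (10 lower), and with a mean of at least 1 CPM Gstz1 and Prdx6 did (11 lower). No paired analysis was possible because the ages share no replicate numbers. Family members with shared sequence and members under 10 CPM are the least certain in level.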
